A study of Homo sapiens with 6 samples.

Results

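SKNMC cells treated with 200 nM THZ1 were compared with SKNMC cells treated with 50 nM THZ1, to ask which transcripts needed the high dose to fall and which recovered or stayed up between the doses. A gene entered the comparison when its FPKM (fragments counted on a gene, divided by transcript length and library size) was above 1 in either of these libraries, which held for 11480 of the 27420 listed genes (41.9%). Of these, 11149 were protein-coding genes and 331 were lincRNA genes. The values of 10636 genes were above 1 at both doses, 416 were above 1 only at 50 nM and 428 only at 200 nM, while 744 genes that were above 1 with DMSO but not with THZ1 stayed outside the comparison.

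SKNMC and A673 are established lines of Ewing sarcoma, a tumor of bone and soft tissue driven by a fusion of EWSR1 with an ETS factor gene, most often FLI1. Both lines received vehicle (DMSO) or THZ1 at 50 or 200 nM over 6 h, and 1 library of RNA was sequenced for each condition, 6 in all. THZ1 is a covalent inhibitor of CDK7. The labels name no other agent or genetic change, and nothing is known here of how many cultures stood behind a library.

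CDK7, with cyclin H and MNAT1, forms the kinase module of the general transcription factor TFIIH. It phosphorylates the C-terminal domain of RNA polymerase II at the start of transcription and activates other CDKs, among them CDK9 of the elongation factor P-TEFb, which releases paused polymerase into the gene body. When synthesis is blocked, transcripts with short half-lives drop soonest, whereas stable transcripts such as those of ribosomal proteins keep their level for hours and take up a larger share of what remains.

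With 1 library a side there was no replicate error and no test, so a gene is called lower or higher here when the ratio of FPKM + 1 at 200 nM to FPKM + 1 at 50 nM passed 2-fold, and the counts are descriptions of these libraries. FPKM is a share of each library: an even loss of RNA from all genes leaves no trace in it, and fewer cells and less RNA per cell cannot be told apart. The summed FPKM at 200 nM was 98.8% of that at 50 nM. The number of genes that made up 50% of the sum was 586 with DMSO, 344 at 50 nM and 220 at 200 nM, so the libraries were carried by fewer genes at each dose. EEF1A1, a translation elongation factor, was listed at 4400 FPKM with DMSO and at 0 in both SKNMC libraries with THZ1, which is why a value of 0 is given below only as a listing. Of the 11 listed markers of endothelial, blood and muscle cells, 1 was a member, the leukocyte phosphatase PTPRC, at 10.2 FPKM with DMSO, 7.9 at 50 nM and 13.1 at 200 nM, while the Ewing sarcoma genes NKX2-2 (37.6 FPKM with DMSO) and STEAP1 (208 FPKM) were well expressed.

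Between 50 and 200 nM the transcriptome moved down on balance and over a wide range. The median log2 ratio was -0.14, with quartiles at -0.54 and 0.16, and 61.6% of the members were below 0. At least 2-fold lower were 1005 members, 8.75% of all, and at least 2-fold higher were 70, 0.61%. At least 4-fold lower were 35 members and at least 4-fold higher was 1, the lincRNA AC137934.1, whose FPKM was 0.174 with DMSO, 0.182 at 50 nM and 6.15 at 200 nM. Within 1.5-fold of the 50 nM level stayed 8307 members, 72.4%. The size of this downward shift depended on the scaling: with each library divided by its 75th percentile every ratio moved up and the median was 0.08, a shift of 0.23, and with division by the ribosomal protein genes the median moved by -0.19 to -0.33. The share of lower genes among the 2-fold differences was 93.5% as deposited, 74.3% under the 75th percentile and 98.4% under the ribosomal protein genes. The 2-fold line did not fall in a gap, since 57 members lay within 0.02 past it on the log2 scale and another 57 within 0.02 short of it.

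**Figure D1:**
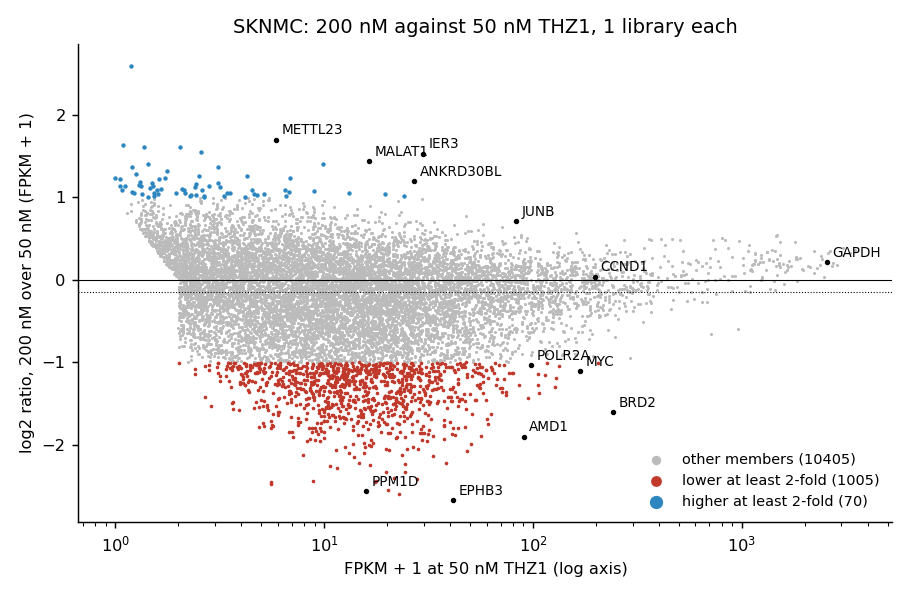
Each point is 1 of the 11480 members, with FPKM + 1 at 50 nM on a log axis and the log2 ratio of 200 nM over 50 nM on the vertical axis, 1 library each; the dotted line is the median of -0.14. The 1005 lower members (red) spread over low and middle levels, the 70 higher members (blue) were mostly weakly expressed, and the most abundant genes such as GAPDH lay slightly above 0.

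To follow each gene over both steps, members were sorted into classes from the ratio of 50 nM to DMSO and the ratio of 200 to 50 nM, with 2-fold as a change and less than 1.5-fold as no change. From DMSO to 50 nM, 1582 members were at least 2-fold lower (13.8%) and 82 at least 2-fold higher (0.714%). Between the doses, 826 genes fell with no fall of 1.5-fold or more at 50 nM before it, 69 fell 2-fold at both steps, 1213 fell at 50 nM and then held, and 120 fell at 50 nM and recovered by at least 1.5-fold. Another 110 genes were 2-fold lower after an intermediate fall at 50 nM. In the other direction, 45 genes rose at 50 nM and stayed up, 37 rose and came down by at least 1.5-fold, and 40 rose only from 50 to 200 nM. Of the 37 genes that came down, 22 did so by 2-fold or more and also count among the 826. Both steps use the 50 nM library, so that error in it moves them in opposite directions, and a gene read too low at 50 nM would look like one that fell and recovered. The A673 libraries are separate from these and are set beside each class below.

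**Figure D2:**
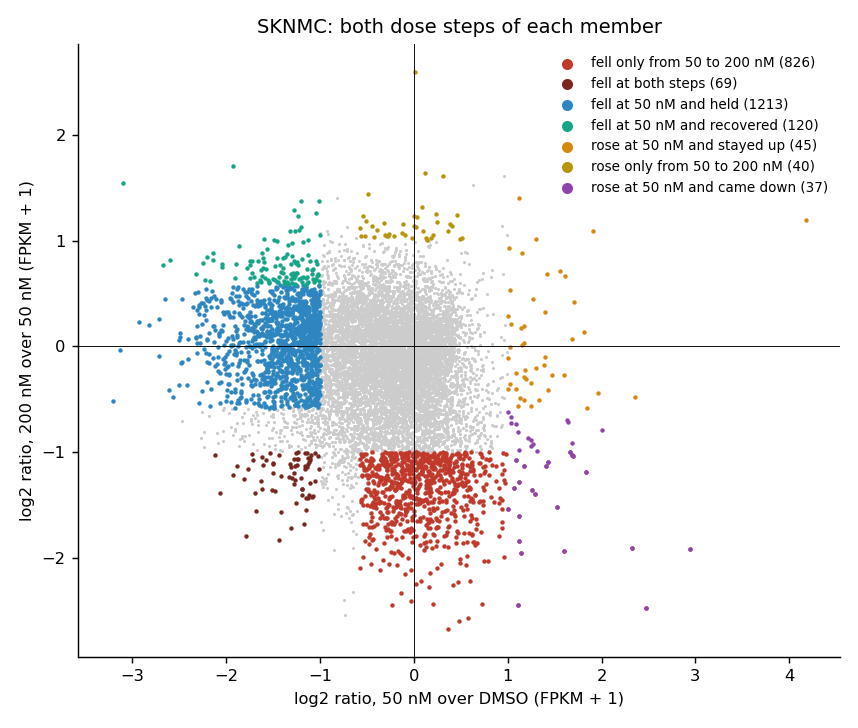
The log2 ratio of 50 nM over DMSO is plotted against the log2 ratio of 200 nM over 50 nM for each of the 11480 members of SKNMC, colored by class with the number of genes in the legend; grey points belong to no class. The 826 genes that fell only between the doses form the block below the centre and the 1213 genes that fell at 50 nM and held form the block on the left.

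The 10 steepest falls between the doses, among members of at least 10 FPKM, included phosphatases, a receptor kinase, small GTPases and regulators of protein turnover. EPHB3, an ephrin receptor, had 31.2 FPKM with DMSO, 40.5 at 50 nM and 5.51 at 200 nM. The value at 50 nM was the highest of the 3 and the value at 200 nM by far the lowest, and the log2 ratio between the doses was -2.67. The gene lies on the plus strand of chromosome 3 at 184279571 to 184300197 (hg19). DEDD2, a death effector domain protein, had 15.4, 21.8 and 2.78 FPKM in the same order, with a log2 ratio of -2.59. PPM1D, the phosphatase that switches off p53 and DNA damage signaling, had 9.68, 14.9 and 1.70 FPKM and a log2 ratio of -2.56, so that 11.4% of its 50 nM level was left at 200 nM. All of these were above their DMSO level at 50 nM.

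RHOH, a small GTPase, had 32.7 FPKM with DMSO, 19.3 at 50 nM and 2.49 at 200 nM, or -2.54 between the doses as a log2 ratio. CDC25A, the phosphatase that opens the way into S phase by activating CDK2, had 19.6, 16.6 and 2.22 FPKM and a log2 ratio of -2.45. FBXO5, the inhibitor of the anaphase-promoting complex, had 35.2, 20.6 and 3.10 FPKM (log2 ratio -2.40). In these genes the level at 50 nM lay between the others, and the larger difference was between the doses. The other genes among the 10 lowest were ABHD17B (-2.43), the ubiquitin ligase SIAH2 (-2.41), the endosomal GTPase RAB9A (-2.33) and the ADP-ribosyltransferase TIPARP (-2.33). All 10 were also at least 2-fold lower in A673, where their log2 ratios ran from -2.74 in RHOH to -1.27 in CDC25A.

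The 826 genes that fell only between the doses had a median log2 ratio of 0.05 from DMSO to 50 nM and of -1.28 from 50 to 200 nM. Their median level was 13.5 FPKM with DMSO, 14.8 at 50 nM and 5.03 at 200 nM. At 50 nM, 453 of them were above their DMSO level, 104 of these by at least 1.5-fold, and at 200 nM 585 were at least 2-fold below DMSO. Of the 793 that passed 1 FPKM in either A673 library with THZ1, 784 were below 0 in that line between the doses, with a median of -1.13, and 486 (61.3%) were at least 2-fold lower, against 7.97% of all 10155 members measured in A673.

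**Figure D3:**
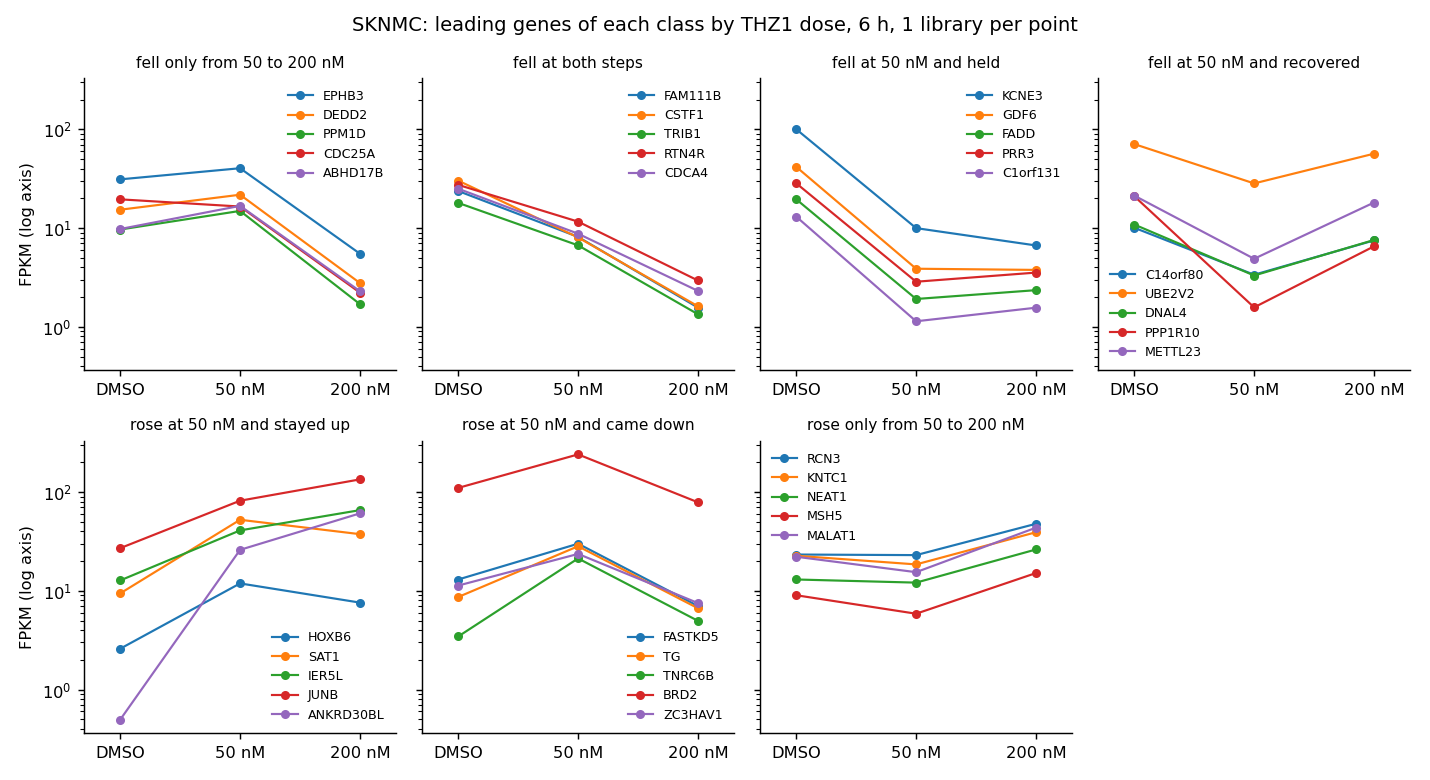
FPKM on a log axis is drawn for the 5 leading genes of each class in SKNMC with DMSO, 50 nM and 200 nM THZ1, each point 1 library. Lines of the first panel are level or rise to 50 nM and then drop, those of the held panel drop at 50 nM and run level, and those of the recovered panel form a V, with METTL23 back at 18.2 FPKM.

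Among the transcription machinery, the kinase that THZ1 binds was itself lower. CDK7 had 30.4 FPKM with DMSO, 22.0 at 50 nM and 6.33 at 200 nM, or -1.65 between the doses as a log2 ratio (A673: -1.37). It was the only one of 10 members of TFIIH and its kinase module that was 2-fold lower (10%, near the 8.75% of all members). Its partners cyclin H (CCNH, -0.90) and MNAT1 (-0.62) had smaller differences, and the helicase subunit genes ERCC3 (-0.08) and ERCC2 (0.15) stayed near their 50 nM level. The median of the 10 genes was 0.02 as deposited and -0.19 under the ribosomal protein scaling, above the median of all members by 0.16 and 0.15.

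In P-TEFb the cyclin genes were lower and the kinase gene was not. CCNT1, cyclin T1, had 16.6 FPKM with DMSO, 23.4 at 50 nM and 4.20 at 200 nM (log2 ratio -2.23). CCNT2, cyclin T2, had 13.1, 29.7 and 11.6 FPKM (-1.28). Both were above DMSO at the first dose and lower at the second, although CCNT2 only returned to about its DMSO level. CDK9 had 20.3, 13.0 and 11.7 FPKM (-0.14, or 0.10 under the 75th percentile scaling). This list of 7 members holds P-TEFb and the proteins of the 7SK particle that restrain it. The cyclins CCNT1 and CCNT2 were the 2 called lower (28.6%, against 8.75% of all members). HEXIM1, the 7SK-bound inhibitor, had 19.7, 40.6 and 30.5 FPKM and kept most of its increase (-0.40).

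Of 21 super elongation complex and pausing factor genes, 5 were lower: ELL2 (-1.23), EAF1 (-1.16), MLLT3 (-1.14), AFF1 (-1.06) and ELL (-1.03), all of them subunits or partners of the ELL and AFF scaffold. Against 8.75% of all members that is 23.8% of the list, but 1 was lower under the 75th percentile scaling and 9 under the ribosomal protein scaling. The list median was -0.67. NELF genes, whose products hold polymerase in the pause, did not move as one, with NELFA at -0.67 and NELFE at 0.27. Mediator had 5 of 32 lower (2 under the 75th percentile, 10 under the ribosomal protein scaling), with MED26 lowest (4.07, 8.51 and 1.75 FPKM, -1.79), then MED17 (-1.42), CDK8 (-1.20), MED13 (-1.07) and MED19 (-1.04), while MED24 stood at 0.48. Among 22 genes of TFIID and other general factors, GTF2B, the factor TFIIB, went from 32.0 FPKM with DMSO and 47.4 at 50 nM to 10.5 at 200 nM (-2.07), and TAF4 (-1.35), TBP (-1.06) and TAF3 (-1.01) were the others called lower, and this count of 4 was 2 under the 75th percentile. Of the RNA polymerase II subunits 1 of 12 was lower (8.33%, near the 8.75% of all members). That was POLR2A, the largest subunit, at 29.2 FPKM with DMSO, 96.8 at 50 nM and 46.8 at 200 nM (-1.03, or -0.78 under the 75th percentile scaling), so at 200 nM it still stood above its DMSO level, while POLR2E was at 0.38.

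The CLK and SRPK kinases, which phosphorylate splicing factors, were listed together with the related DYRK kinases, PRPF4B and ARGLU1. Of these 13 genes 6 were lower (46.2%, against 8.75% of all members): CLK3 (-1.30), DYRK3 (-1.24), DYRK1A (-1.20), CLK1 (-1.13), SRPK2 (-1.10) and DYRK2 (-1.04). The list median was -0.90, and 2 of the 13 were past 2-fold under the 75th percentile and 7 under the ribosomal protein scaling. In A673, 3 of the 13 were lower, beside 7.97% of all shared members. CLK1 had 34.4 FPKM with DMSO, 79.0 at 50 nM and 35.5 at 200 nM, and so was near its starting level at 200 nM. CLK2 fell at 50 nM instead, from 24.8 FPKM with DMSO to 11.4, and had 14.6 at 200 nM (0.33). The SR proteins and hnRNPs, 30 genes, had 1 lower gene, SRSF4 (-1.01, past 2-fold neither under the 75th percentile nor under a common sum), and a median of -0.13 (0.13 under the 75th percentile).

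TGF-beta and BMP signaling genes also had a list median of -0.90, with 6 of 16 lower (37.5%, against 8.75% of all members), 3 under the 75th percentile and 9 under the ribosomal protein scaling. TGIF1, a SMAD corepressor, had 26.9 FPKM with DMSO, 17.1 at 50 nM and 4.31 at 200 nM (-1.77). BAMBI, a decoy receptor, had 26.0, 16.2 and 4.72 FPKM (-1.59), and SMAD4, the common SMAD, had 47.4, 41.2 and 15.5 (-1.36). SKI (-1.24), SMAD1 (-1.14) and TGFBR1 (-1.05) were the others. SMAD7, the inhibitory SMAD, rose from 11.3 to 24.1 FPKM at 50 nM and stood at 18.6 at 200 nM (-0.35). In A673, 7 of the 16 were lower, beside 7.97% of all shared members. In the list of DUSP, SPRY and SPRED genes 5 of 13 were lower (3 under the 75th percentile), the feedback regulators of MAP kinase signaling DUSP7 (-1.34), DUSP5 (-1.23), SPRED1 (-1.10) and SPRED2 (-1.05), and DUSP11 (-1.38), which acts on RNA and is no such regulator. DUSP2 differed from them: 81.7 FPKM with DMSO dropped to 16.6 at 50 nM and stood at 20.5 at 200 nM.

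The p53 pathway had 6 of 19 lower (31.6%, against 8.75% of all members), although 3 were under the 75th percentile and in A673 1 of 16 was lower. The 6 were led by PPM1D and followed by SESN1 (-1.58), SESN2 (-1.57), FAS (-1.10), the CDK inhibitor CDKN1A (-1.04) and TP53INP1 (-1.01). GADD45B, a stress-induced growth arrest gene, was the highest of the list, with 4.04 FPKM with DMSO, 10.2 at 50 nM and 19.6 at 200 nM (0.88). Of 13 BCL2 family genes, BMF (26.4, 22.1 and 8.27 FPKM, -1.32) and the short-lived survival factor MCL1 (63.8, 64.8 and 31.8 FPKM, -1.0) were lower (1 of the 13 under the 75th percentile), and BAX stood at 0.62. Immediate early genes lay on both sides. EGR2 (-1.56), FOSL2 (-1.10), ATF3 (-1.04) and MCL1 were the 4 of 23 called lower (17.4%, against 8.75% of all members). IER3 and FOSL1 (1.01) were the 2 of 23 called higher, beside 0.61% of all members. Under the 75th percentile 1 was lower and 2 were higher.

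Genes that the study itself singled out in Ewing sarcoma differed in where they fell. The list was taken from the text of the study and is not independent evidence of a direction. Of its 15 members, 5 were lower between the doses (33.3%, against 8.75% of all members, and 3 under the 75th percentile). FLI1 had 27.3 FPKM with DMSO, 15.2 at 50 nM and 4.56 at 200 nM (-1.54), and since the fusion carries the 3′ part of FLI1, reads of the fusion count toward it. EWSR1 had 161, 170 and 126 FPKM (-0.43). MYC had 198, 167 and 76.8 FPKM (-1.11, or -0.85 under the 75th percentile), with most of its fall after 50 nM. CITED2, a coactivator that binds CBP and p300, fell at both steps, from 208 to 93.2 and to 33.9 FPKM (-1.43). NKX2-2, a homeobox target of the fusion, had 37.6, 27.3 and 11.4 FPKM (-1.19, or -0.95 under the 75th percentile).

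Other genes on the same list had most of their difference from DMSO at 50 nM. MEIS1, a homeobox factor, had 54.7 FPKM with DMSO, 21.2 at 50 nM and 18.7 at 200 nM (-0.18, or 0.07 under the 75th percentile). APCDD1, an inhibitor of Wnt signaling, had 187, 50.0 and 54.0 FPKM (0.11, or -0.11 under the ribosomal protein scaling). BCL11B, a zinc finger factor, had 21.4, 9.06 and 8.88 FPKM (-0.02, or 0.21 under the 75th percentile). CCND1, cyclin D1, had 370, 197 and 202 FPKM (0.04, or -0.18 under the ribosomal protein scaling). In all of these the 200 nM value was within 1.5-fold of the 50 nM value. Over a list of 30 genes known to be activated by EWS-FLI1, 4 were lower (13.3%, against 8.75% of all members, and 2 under the 75th percentile). These were E2F3 (-1.59), HOXD13 (-1.30), NKX2-2 and DKK2 (-1.10). The list median of -0.09 (0.16 under the 75th percentile) was 0.05 above that of all members. The 137 members assigned to super-enhancers shared by Ewing lines had 20 lower (14.6%, against 8.75% of all members) and a median of -0.35. Under the 75th percentile 13 were lower, and under the ribosomal protein scaling 35. In A673, 28 of 135 were lower, beside 7.97% of all shared members. At 50 nM, 30 of the 137 were already 2-fold lower, against 13.8% of all members. That list, too, came from the study.

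The 1213 genes that fell at 50 nM and held had a median of -1.32 at the first step and 0.06 at the second. Their median level was 12.2 FPKM with DMSO, 3.69 at 50 nM and 3.68 at 200 nM. KCNE3, a potassium channel subunit, had 100.5 FPKM with DMSO, 10.0 at 50 nM and 6.68 at 200 nM. GDF6, a BMP family ligand, had 41.8, 3.88 and 3.77 FPKM. FADD, the adaptor of death receptors, had 19.6, 1.91 and 2.35 FPKM, and PRR3 had 28.5, 2.86 and 3.54. These are among the largest falls of the class at 50 nM, by which they were chosen. Levels this low limit how far the ratio can fall, since the added 1 FPKM holds it up. In A673 the 1062 of these genes that could be compared had a median of 0.16 between the doses. At least 2-fold lower were 11 (1.04%), against 7.97% of all shared members. In the homologous recombination, Fanconi and checkpoint list 12 of 31 members were 2-fold lower at 50 nM, against 13.8% of all members, and between the doses 1 was, PALB2 (11, 3.14 and 1.05 FPKM, -1.01). BRCA1 did not hold its 50 nM level, with 9.66 FPKM with DMSO, 2.49 at 50 nM and 5.23 at 200 nM (0.84).

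The 69 genes that fell at both steps had a median of -1.27 at the first and -1.16 at the second. FAM111B, a serine protease, had 23.8 FPKM with DMSO, 8.15 at 50 nM and 1.57 at 200 nM (-1.83). CSTF1, a cleavage stimulation factor subunit, had 30.3, 8.05 and 1.61 FPKM (-1.79). TRIB1, a pseudokinase, had 18.0, 6.69 and 1.34 FPKM (-1.72), and RTN4R (-1.68) and CDCA4 (-1.56) followed. In A673, 63 of the 69 could be compared. All 63 were below 0 between the doses, against 51.1% of all shared members. At least 2-fold lower were 17 (27%), against 7.97%.

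The 120 genes that recovered went from a median of 2.42 FPKM at 50 nM to 4.91 at 200 nM, against 8.80 with DMSO. At 200 nM 55 were back within 1.5-fold of DMSO and 21 were still 2-fold below it. METTL23, a protein methyltransferase, had 21.4 FPKM with DMSO, 4.89 at 50 nM and 18.2 at 200 nM, and its log2 ratio of 1.70 between the doses was the highest of all members at 10 FPKM or more. PPP1R10, a targeting subunit of protein phosphatase 1 that is also known as PNUTS, had 21.1, 1.57 and 6.54 FPKM (1.55). UBE2V2, a ubiquitin-conjugating enzyme variant, had 71.1, 28.4 and 56.8 FPKM (0.98). DNAL4 (0.99) and C14orf80 (0.96) were similar. The same V was seen in the separate A673 libraries, where METTL23 had 21.8, 9.80 and 23.1 FPKM and PPP1R10 17.2, 3.10 and 6.45. Of the 102 recovered genes that could be compared in A673, 99 (97.1%) were above 0 between the doses there, with a median of 0.52, and 3 were at least 2-fold higher, against 0.207% of all shared members.

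The 37 genes that rose at 50 nM and came down had a median of 5.5 FPKM with DMSO, 16.4 at 50 nM and 6.52 at 200 nM. BRD2, a bromodomain protein that binds acetylated histones, had 110 FPKM with DMSO, 241 at 50 nM and 78.9 at 200 nM (-1.60). TNRC6B, a partner of Argonaute in miRNA silencing, had 3.45, 21.3 and 4.97 FPKM (-1.90), and FASTKD5, a mitochondrial RNA processing factor, had 13.0, 30.0 and 7.02 (-1.95). NXF1, the main mRNA export receptor, had 35.2, 128 and 55.9 FPKM (-1.18). Each peaked at the low dose. TG, thyroglobulin (8.66, 28.3 and 6.66 FPKM, -1.93), and ZC3HAV1, an antiviral zinc finger protein (11.3, 23.7 and 7.52 FPKM, -1.53), did the same. At 200 nM 25 of the 37 were within 1.5-fold of DMSO, 10 were below it and 9 were still at least 1.5-fold above it. In A673 all 32 that could be compared were below 0 between the doses, against 51.1% of all shared members. At least 2-fold lower were 18 (56.2%), against 7.97%. TG was barely expressed in A673 (0.0968 FPKM with DMSO). NXF1 was chosen for mention after its values were seen.

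The 45 genes that rose and stayed up had a median of 1.8 FPKM with DMSO, 6.53 at 50 nM and 6.43 at 200 nM. Among them, 13 were lincRNA genes. JUNB, an AP-1 factor, had 27.1 FPKM with DMSO, 81.9 at 50 nM and 135 at 200 nM, and so stood higher at each dose (0.71 at the second). SAT1, the enzyme that starts polyamine breakdown, had 9.42, 52.5 and 37.5 FPKM (-0.47), and HOXB6 had 2.59, 11.9 and 7.6 (-0.58). AMD1, which feeds polyamine synthesis, had 77.9, 89.5 and 23.2 FPKM (-1.90). Both AMD1 and SAT1 were above DMSO at 50 nM, and at 200 nM AMD1 was below DMSO and SAT1 above it. ANKRD30BL had 0.495, 26.0 and 60.9 FPKM (1.20, or 0.98 under the ribosomal protein scaling), and 0.356, 25.9 and 52.0 in A673, the largest rise of a named gene in both lines. In all, 21 of the 45 were higher at 200 than at 50 nM, 9 of them by at least 1.5-fold. In A673, 29 of the 40 that could be compared were below 0 between the doses, against 51.1% of all shared members, with a median of -0.38.

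The 40 genes that rose only from 50 to 200 nM were mostly weak, with a median of 0.691 FPKM at 50 nM and 3.30 at 200 nM, and 11 were lincRNA genes. Of the 40, 18 were above 1 FPKM in both THZ1 libraries. The others entered the comparison only through their level at 200 nM, where they are high. In A673, 22 of the 24 that could be compared were above 0 between the doses, with a median of 0.56, while 51.1% of all shared members were below 0. MALAT1, a nuclear lincRNA of splicing speckles, had 22.1 FPKM with DMSO, 15.5 at 50 nM and 43.6 at 200 nM (1.44), and 10.1, 8.38 and 20.3 in A673. NEAT1, the scaffold RNA of paraspeckles, had 13.0, 12.1 and 26.2 FPKM (1.06), but 44.9, 19 and 18.5 in A673, where it did not come up between the doses. MSH5, a meiotic mismatch repair homolog, had 9.02, 5.86 and 15.1 FPKM (1.23), a value that may be split with MSH5-SAPCD1, which overlaps it and is also a member at 1.37. KNTC1, a kinetochore protein, had 22.7, 18.5 and 39.2 FPKM (1.04), and RCN3, a calcium-binding protein of the endoplasmic reticulum, had 23.3, 23.0 and 47.8 (1.02). The ratios of NEAT1, KNTC1 and RCN3 were below 2-fold under the ribosomal protein scaling, at 0.84, 0.82 and 0.80.

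Among the 10 highest members of at least 10 FPKM, METTL23 was followed by IER3, a stress-induced immediate early gene, with 18.4 FPKM with DMSO, 28.9 at 50 nM and 85.3 at 200 nM (1.53), and with 37.3, 53.8 and 92.3 in A673. MEG3, an imprinted lincRNA, had 3.54, 8.88 and 25.1 FPKM (1.40), against 2.86, 5.31 and 6.21 in A673. MDC1 (1.09), NFATC4 (1.07) and HMMR (1.06) were low at 50 nM and at about their DMSO level at 200 nM, with 11.4, 5.52 and 12.9 FPKM in MDC1, the scaffold of damaged chromatin. Of the 10 highest genes, 9 were above 0 in A673 and NEAT1 stood at -0.03.

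The cell cycle lists are read against the 8.75% of all members that were lower, and in A673 against 7.97% of the shared members. Of 33 genes of E2F factors and replication, 7 were lower (21.2%, and 3 of 33 in A673), with CCNE1 (-2.09), E2F3, E2F6 (-1.53) and E2F2 (-1.30) beside GMNN (-1.42), GINS3 (-1.34) and MCM10 (-1.24). Of 30 mitosis genes 3 were lower (10%, and 6 of 30 in A673), namely CDC25A, the motor protein KIF23 (37.8, 37.8 and 12.2 FPKM, -1.56) and the kinase AURKA (50.9, 21.7 and 7.92 FPKM, -1.35). Of 14 genes of the cyclin D, CDK4/6 and RB axis 1 was lower (7.14%), CDKN1A, and RB1 itself had 31.6 FPKM with DMSO, 22.3 at 50 nM and 32.1 at 200 nM (0.51). Within 11 genes of the MYC network 3 were lower, MYC, its partner MAX (40.2, 35.2 and 14.6 FPKM, -1.21) and MLXIP (-1.0), but none of the 11 was past 2-fold under the 75th percentile or in A673.

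Shares of lower genes in the chromatin lists were 17.9%, 17.4% and 19%, against 8.75% of all members, and counts under the 75th percentile were 3, 2 and 3. Of 28 Polycomb genes 5 were lower, among them RYBP (-1.77), EED, a core subunit of PRC2 (-1.50), RNF2, the E3 ligase subunit of PRC1 (-1.47), and MTF2 (-1.16). Of 23 SWI/SNF and CHD remodeler genes 4 were lower, CHD1 (-1.55), ARID1A (32.5, 33.7 and 11.3 FPKM, -1.49), CHD9 (-1.18) and CHD7 (-1.0), while SMARCC2 stood at 0.58. Of 21 acetyltransferase, bromodomain and KMT genes 4 were lower, BRD2, the coactivator EP300 (12.6, 11.2 and 3.44 FPKM, -1.46), KAT7 (-1.36) and KAT6A (-1.03). Of the 13 lower genes of these complexes, 9 were above their DMSO level at 50 nM, beside 453 of all 1005 lower members. Both steps share the 50 nM library, and the difference was not tested.

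Lists of mRNA processing, decay and ribosome biogenesis had 17.2%, 21.2% and 19.4% lower, and under the 75th percentile 3, 4 and 4 genes in the same order. Of 29 cleavage, polyadenylation and Integrator genes 5 were lower, CLP1 (16.1, 15.4 and 3.10 FPKM, -2.0), CSTF1, FIP1L1 (-1.39), WDR33 (-1.13) and INTS12 (-1.04), and the scaffold SYMPK was highest at 0.75. Of 33 mRNA decay genes 7 were lower, the antiproliferative BTG1 (14.8, 17.8 and 4.23 FPKM, -1.84) and TOB1 (-1.13), which recruit the CCR4-NOT deadenylase, with its genes CNOT6L (-1.54), CNOT4 (-1.24) and CNOT8 (-1.14) and the decapping genes DCP1A (-1.28) and DCP2 (-1.0). Of 36 ribosome biogenesis genes 7 were lower, WDR43 (50.1, 40.1 and 10.3 FPKM, -1.86), NOP16 (-1.52), the RNA polymerase I subunit POLR1B (-1.49), NOP2 (-1.42), UTP15 (-1.18), WDR12 (-1.13) and RRS1 (-1.01). Among 76 mitochondrial ribosomal protein genes 6 were lower, led by MRPL44 (-1.68) and MRPL32 (-1.37), 7.89% of that list and near the 8.75% of all members. None of 7 genes of CDK12, CDK13 and cyclins K and L was lower, with CDK12 at 19.9, 14.7 and 8.91 FPKM (-0.67).

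Stress and metabolic lists ranged from 2.94% lower in the proteasome to 23.1% in the Hippo list, again beside 8.75% of all members. Heat shock genes went from 4 to 2 lower under the 75th percentile, endoplasmic reticulum stress and cholesterol genes from 3 to 2 each, ATF4 genes from 4 to 3, Hippo genes from 3 to 2, circadian genes from 2 to 1 and the tRNA synthetases from 1 to 0. Of 21 heat shock genes 4 were lower, the factor HSF2 (24.6, 32.0 and 7.90 FPKM, -1.89), the HSP70 cochaperone BAG3 (8.24, 13.5 and 2.93 FPKM, -1.88), DNAJB4 (-1.15) and HSPA1B (-1.09), whereas HSP90AA1 had 342, 365 and 510 FPKM (0.48). Of 20 endoplasmic reticulum stress genes 3 were lower, the kinase EIF2AK3 (-1.58), XBP1 (35.8, 7.80 and 2.37 FPKM, -1.39) and DNAJC3 (-1.10). Of 18 genes of the ATF4 response 4 were lower, SESN2, CEBPG (-1.29), TRIB3 (-1.27) and CEBPB (-1.11), and ATF4 itself was the highest of them (225, 131 and 165 FPKM, 0.34). Of 20 cholesterol synthesis genes 3 were lower, among them the sterol sensor INSIG1 (-1.46) and SQLE (-1.09). Of 18 glycolysis genes 1 was lower, the transporter SLC2A1, and of 34 proteasome genes 1, PSMD12 (-1.44). Hippo genes had 3 of 13 lower, the kinases LATS1 (-1.46) and LATS2 (-1.12) and AMOTL1 (-1.27), Notch and ID genes 2 of 16, MAML1 (-1.27) and ID4 (-1.27), NF-kB genes 1 of 12, REL (-1.33), circadian genes 2 of 14, NFIL3 (-1.76) and NR1D2 (-1.08), polyamine genes 2 of 9, AMD1 and SMOX (-1.32), and tRNA synthetases 1 of 20, TARS (-1.03).

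Genes that EWS-FLI1 is known to repress had 4 of 17 lower (23.5%, against 8.75% of all members, and 1 under the 75th percentile), FOXO3 (8.16, 9.63 and 2.08 FPKM, -1.79), FOXO1 (-1.13), CDKN1A and DKK1 (-1.03), but the list median was 0.30. IGFBP5 was highest, with 15.7, 13.3 and 25 FPKM (0.86). In A673 the median of this list had the other sign, at -0.15, with 2 of 13 genes lower. Among zinc finger genes 10 of 113 on chromosome 19 (8.85%) and 26 of 174 elsewhere (14.9%) were lower between the doses, with medians of -0.28 and -0.22. In A673 these counts were 13 of 78 and 28 of 150, beside 7.97% of all shared members, and the difference was not tested. In SKNMC at 50 nM, 30 of the 113 and 53 of the 174 had been 2-fold lower, against 13.8% of all members.

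At the stable end, none of 80 cytosolic ribosomal protein genes was lower or higher by 2-fold. Their log2 ratios lay between -0.08 and 0.56 with a median of 0.23, and 75 were above 0, against 80 under the 75th percentile. Division by their own median centers these genes near 0 by construction, so the 42 above 0 under it carry no information. The lowest was RPS7, at 820 FPKM with DMSO, 1092 at 50 nM and 1033 at 200 nM. GAPDH, a glycolytic enzyme, had 1879, 2556 and 2970 FPKM (0.22, or -0.01 under the ribosomal protein scaling). None of 75 respiratory chain genes was past 2-fold (median 0.04), none of 34 translation factors (median -0.08) and none of 8 chaperonin CCT subunits (median -0.08), and every CCT gene lay between -0.39 and -0.04. Nor was any of 13 tubulin and actin genes (median -0.10), 12 genes of MHC class I and antigen processing (-0.13) or 4 small nucleolar RNA host genes (0.04), and MT-ATP6, the 1 mitochondrially encoded member, stood at 0.38. The signs of the small medians follow the scaling: under the 75th percentile the CCT median was 0.17, and under the ribosomal protein genes the respiratory chain median was -0.18. Ribosomal protein genes have many processed pseudogenes, among which reads can be split.

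Clustered histone genes were the list with the highest median, 0.69, and its median stayed above 0 under each scaling (0.55 to 0.86). Of 71 listed histone genes 25 were members. At least 2-fold higher were 4 of the 25, against 0.61% of all members, and none was lower. The count of 4 was 9 under the 75th percentile and 2 under the ribosomal protein scaling. Most of the histone members were weakly expressed. HIST2H2BE, the highest one above 10 FPKM, had 3.64 FPKM with DMSO, 7.95 at 50 nM and 13.4 at 200 nM, whereas HIST1H2AC had 40.6, 47.8 and 29.1 (-0.70). The lincRNA genes had a median of 0.15, with 3 of 331 lower (0.906%) and 13 higher, against 1002 of 11149 protein-coding genes lower (8.99%) and 57 higher. Their median was 0.00 under the ribosomal protein scaling. In A673 the lincRNA genes had a median of -0.04, with 10 of 179 lower (5.59%). The protein-coding genes had -0.01 and 8.01% lower there, so the lincRNA median was above that of protein-coding genes in SKNMC but not in A673. All 6 neural marker members were above 0, with ENO2 highest (8.06, 6.94 and 14.1 FPKM, 0.93).

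**Figure D4:**
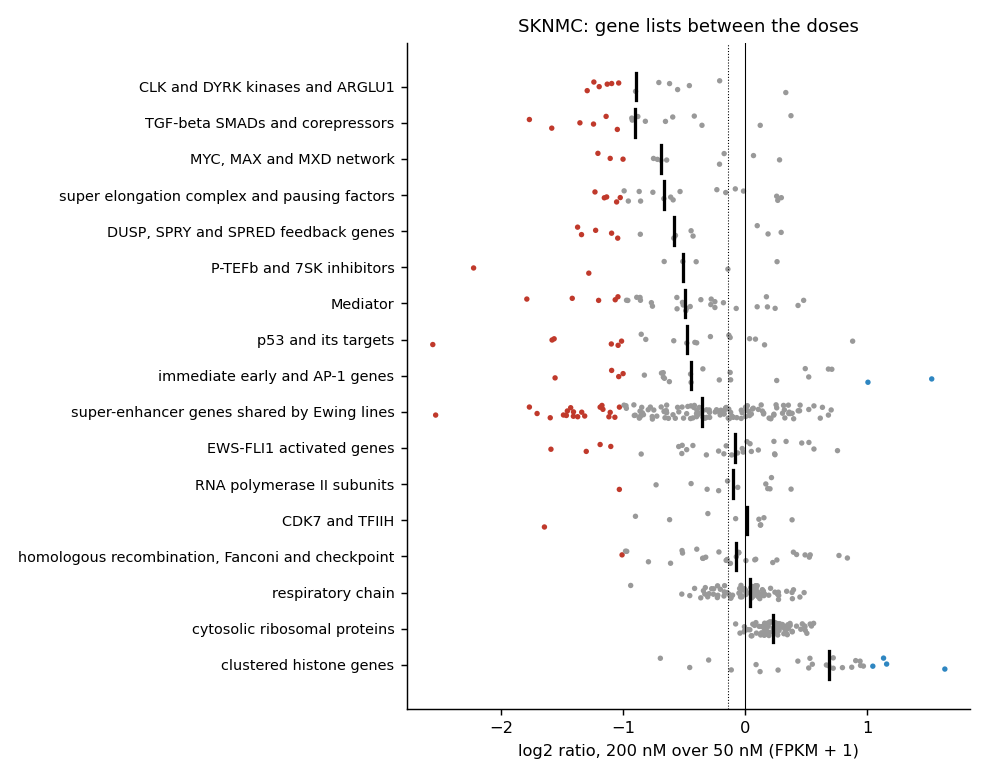
Each point is 1 gene, placed by its log2 ratio of 200 nM over 50 nM in SKNMC, and each row is a gene list; black bars are list medians, red points are at least 2-fold lower, blue points at least 2-fold higher, and the dotted line is the median of all members. The CLK, DYRK and SRPK list and the TGF-beta list have medians of -0.90, the ribosomal protein genes form a narrow band around 0.23 and the histone genes have a median of 0.69.

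Gene features that the rule did not use differed between the classes. By genomic span (hg19), the shortest quintile of members had a median ratio of 0.03 and 4.44% at least 2-fold lower, the fourth quintile had -0.26 and 11.7%, and the longest quintile had -0.23 and 7.8%. In A673 these shares were 4.68%, 10.1% and 9.61%. The genes that fell only between the doses had a median span of 44265 bases, those that fell at 50 nM and held had 19978, and all members had 32032.5. By level with DMSO, the share lower was 3.92% in the lowest quintile, 12.8% in the middle quintile and 5.31% in the highest quintile. The lowest quintile had a median of 2.47 FPKM with DMSO, where the added 1 FPKM shrinks ratios in both directions. How far this accounts for its share lower was not tested. The same quintile held 51 of the 70 higher members. A gene at or below 1 FPKM with DMSO is a member only where it passed 1 FPKM with THZ1. Exon number was taken from the longest GENCODE transcript of 98.2% of the members. The share lower was 6.19% at 1 exon, 10.5% at 2 to 4 exons, 9.1% at 10 to 19 and 4.54% at 20 or more. In A673 these shares were 11.1%, 10.1%, 7.75% and 6.45%, so the lines differed most at 1 exon. These shares are descriptions across genes, and span, exon number and level are related to one another.

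The promoters of 4 genes are shown to let the counted motifs be seen in place. They are RefSeq windows (GRCh38.p14) from 250 bases before to 50 bases after the start, 5′ to 3′ on the gene's strand, and capitals mark GGGCGG (the SP1 GC box), CCGGAAG (an ETS core), GCGCATGC (the NRF1 core) and TATAAA (the TATA box) on either strand. EPHB3 at chr3:184561535-184561834 (plus strand) and CCNT1 at chr12:48716658-48716957 (minus strand) fell only at the high dose, FADD at chr11:70203046-70203345 (plus strand) fell at 50 nM and held, and JUNB at chr19:12791236-12791535 (plus strand) rose at 50 nM and stayed up.
EPHB3: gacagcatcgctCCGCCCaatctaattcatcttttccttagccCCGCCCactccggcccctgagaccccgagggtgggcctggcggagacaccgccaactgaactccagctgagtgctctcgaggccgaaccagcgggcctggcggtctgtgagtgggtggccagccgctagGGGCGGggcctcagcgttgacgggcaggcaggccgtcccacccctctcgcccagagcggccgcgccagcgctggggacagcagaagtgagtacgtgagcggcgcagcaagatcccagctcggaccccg
CCNT1: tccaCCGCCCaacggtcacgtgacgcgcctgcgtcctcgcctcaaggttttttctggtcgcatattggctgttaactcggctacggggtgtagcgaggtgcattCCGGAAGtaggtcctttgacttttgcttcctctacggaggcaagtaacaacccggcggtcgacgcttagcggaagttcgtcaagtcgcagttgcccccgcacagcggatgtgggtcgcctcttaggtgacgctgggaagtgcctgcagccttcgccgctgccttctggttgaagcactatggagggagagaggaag
FADD: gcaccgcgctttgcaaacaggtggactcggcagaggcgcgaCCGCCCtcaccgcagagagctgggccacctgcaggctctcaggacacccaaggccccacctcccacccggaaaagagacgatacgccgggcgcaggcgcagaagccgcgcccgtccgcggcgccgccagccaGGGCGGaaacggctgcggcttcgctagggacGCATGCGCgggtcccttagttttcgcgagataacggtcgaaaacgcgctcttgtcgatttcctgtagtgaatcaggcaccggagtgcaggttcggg
JUNB: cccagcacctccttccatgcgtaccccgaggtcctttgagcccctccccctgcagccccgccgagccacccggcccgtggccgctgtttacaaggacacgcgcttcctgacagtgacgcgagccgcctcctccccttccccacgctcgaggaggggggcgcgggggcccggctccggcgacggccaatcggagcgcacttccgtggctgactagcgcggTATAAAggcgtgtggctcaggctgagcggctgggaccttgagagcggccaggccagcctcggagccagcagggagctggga
The EPHB3 window held GGGCGG 3 times and the FADD window 2 times beside 1 GCGCATGC. CCNT1 had 1 GGGCGG and 1 CCGGAAG, and JUNB had 1 TATAAA and none of the others.

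A window was found for 9193 members (80.1%), for 693 genes that fell only between the doses (83.9%) and for 995 that fell at 50 nM and held (82%). In the smaller classes fewer than 80% of the genes had one, so shares there are void. GGGCGG was present in 77.3% of the genes that fell only at the high dose, in 68.4% of those that fell at 50 nM and held, in 71.5% of all members and in 44.6% of all 27305 promoters in the table. CCGGAAG ran the other way, with 16.7% and 25.7% in these classes, 20.5% of members and 10.7% of all promoters. GCGCATGC was present in 5.77% and 9.15%, against 5.93% of members and 3.27% of all promoters. TATAAA was present in 5.92% and 3.82%, against 5.2% and 12%. CACGTG (the E-box) was present in 12.7% and 11.7%, against 10.7% and 7.43%. CCAAT (the NF-Y box) was present in 37.5% and 37.2%, and the longer TGACGTCA (a CREB core), TGACTCA (an AP-1 core) and GGAAGGAA (a short ETS repeat) in under 4% of either class. GGAAGGAA, the short repeat, shares letters with CCGGAAG, and matches were counted without regard to overlap. A match is a run of letters in a window, not a bound site.

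In A673, treated in the same way, the 10155 shared members had a median of -0.01 between the doses, and 809 (7.97%) were at least 2-fold lower and 21 (0.207%) at least 2-fold higher. Across these genes the ratios of the lines had a Spearman correlation of 0.77 and a Pearson correlation of 0.80. Genes are not independent replicates, and the lines shared the compound, the doses and the processing. Of 960 genes lower in SKNMC, 554 were lower in A673, which is 57.7% of the SKNMC genes and 68.5% of the A673 genes, and 950 (99%) were below 0, against 51.1% of all shared members. Of 49 genes higher in SKNMC, 10 were higher in A673 and 44 were above 0. Moving at least 1.5-fold in opposite directions were 2 genes, IER5L and AL136218.1.

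**Figure D5:**
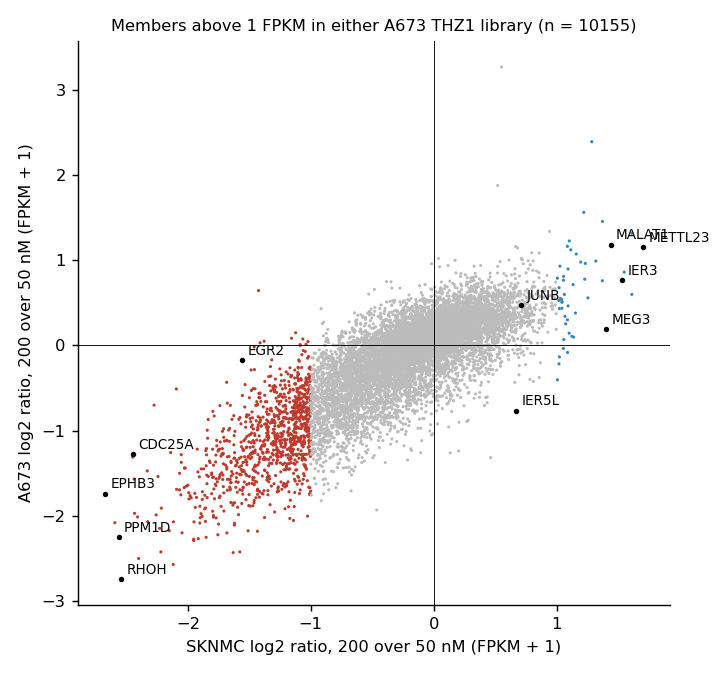
The log2 ratio of 200 nM over 50 nM in SKNMC is plotted against the same ratio in A673 for 10155 members, with genes 2-fold lower in SKNMC in red and 2-fold higher in blue. Of the 960 red points 950 lie below 0 in A673, and IER5L lies in the lower right, up in SKNMC and down in A673.

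Some genes were at least 2-fold lower between the doses in 1 line only. In SKNMC, CCNE1, cyclin E1, had 18.6 FPKM with DMSO, 12.2 at 50 nM and 2.09 at 200 nM (-2.09), but 2.26, 1.09 and 0.467 in A673 (-0.51), where it was weakly expressed. EGR2, an early growth response factor, stood at -1.56 in SKNMC and -0.17 in A673 (12.2, 6.01 and 5.23 FPKM). SLC2A1, the glucose transporter GLUT1, had 19.3, 14.7 and 4.70 FPKM in SKNMC (-1.46) and 14.1, 10.8 and 10.6 in A673 (-0.02). INSIG1, a sterol sensor, stood at -1.46 and -0.28, but in A673 most of its fall came at 50 nM (22.9, 7.15 and 5.70 FPKM). CDK13 was past 2-fold in A673 only, at -1.48 against -0.81 in SKNMC. None of these differences between lines was tested, with 1 library for each condition and line.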

How the data were processed

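RNA-seq was analysed in 6 libraries of A673 and SKNMC cells, 1 per condition by the labels, although the deposited table is headed as average expression. The authors prepared TruSeq libraries, sequenced 100-bp pairs, aligned them with STAR (hg19, Ensembl 75) and deposited FPKM per gene. The methods name StringTie for this step and the labels name Cufflinks. Strandedness is not given in the sources used here, so reads of a gene and an overlapping or antisense one cannot be told apart. The deposited log2 fold changes against DMSO, the authors' own comparison, were not used.

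From the FPKM columns, log2((FPKM + 1) / (FPKM + 1)) was computed with Python 3.11.15, pandas 2.3.3 and numpy 2.4.6, and figures were drawn with matplotlib 3.10.9. FPKM holds no counts, and depth is unknown: low values gave no usable relative depth, since 1.18% of 2702 low-value genes sat at the most frequent ratio. Where a symbol was listed more than once, list counts took the entry with the highest mean.

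Named genes were taken from the 6066 members of at least 10 FPKM in either THZ1 library, where above 0 in all 3 SKNMC libraries: the 10 lowest and 10 highest, 5 per class (at 10 FPKM or more in any SKNMC library), the lowest and the highest of each list, and genes the study names. Single members that complete a count of a list are given as well, and a few others were chosen after their values were seen. The members and lists were chosen with earlier results of these data known. The 56 lists were counted without a test. The steps were tested on simulated data. Exons came from GENCODE release 44 on GRCh37, and promoters from RefSeq. With no replicates no test was run. Alternatives were other pseudocounts, filters, scalings and folds.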

Additional observations from a re-analysis of the deposited data

Results flagged for a closer look

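IER5L, an immediate early response gene, moved in opposite directions in the lines between the doses. In SKNMC it had 12.7 FPKM with DMSO, 41.0 at 50 nM and 65.7 at 200 nM, and the log2 ratio from 50 to 200 nM was 0.67. In A673 it had 9.42, 26.6 and 15.2 FPKM, a log2 ratio of -0.77, and so was still above DMSO at 200 nM. The gene was flagged because both ratios passed 1.5-fold, and the SKNMC ratio was near that limit of 0.58. Each line has 1 library per condition, and whether the lines differ was not tested.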

How the results depend on the processing

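Of 99 alternative values of the counts and the median, 56 stayed close, a count within 1.5 times the reported one or a median within 0.1 of it, and the others follow in the order lower, higher, fell only between the doses, fell at both steps, fell and held, recovered, stayed up, came down and rose only from 50 to 200 nM, leaving out those that stayed. With each library divided by its 75th percentile the counts were 586, 203, 535, 19, 661, 191, 86, 68 and 126, and the median reversed to 0.0847. With division by the ribosomal protein genes, 1559 were lower and 26 higher, 263 fell at both steps, 2112 held, 19 stayed up, 24 came down and 13 rose only at 200 nM, with a median of -0.33. With a pseudocount of 0.1, 301 were higher, 204 fell at both steps, 334 recovered, 98 stayed up, 89 came down and 107 rose only at 200 nM. With 1.5-fold as a change and, changed together with it, a narrower limit for no change in the classes, 2634 were lower and 539 higher, 1657 fell only between the doses, 608 at both steps, 701 recovered, 122 stayed up, 238 came down and 178 rose only at 200 nM. Above 10 FPKM in either library, 649 were lower and 13 higher, 22 fell at both steps, 224 held, 23 recovered, 19 stayed up, 24 came down and 5 rose only at 200 nM. Above 1 FPKM in both libraries, 40 were higher and 18 rose only at 200 nM. With every listed gene the median was 0. A common sum, protein-coding genes alone and leaving out zeros changed none of these counts by more than 1.5 times. The causes of these differences were not tested.

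Of the 159 named members, no called gene changed sign. Under the 75th percentile 10 fell short of 2-fold, MYC, MAX, NKX2-2 and POLR2A among them, and under the ribosomal protein scaling 7, HMMR and ANKRD30BL among them. No paired analysis was possible because the labels carry no replicate numbers and each condition has 1 library, and for the same reason no leaving out of a replicate was run. The depth of the libraries is unknown from FPKM, and low levels, where the rises mostly lie, are the least precise.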
